A study of Nematostella vectensis with 136 samples.

Results

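The 24 libraries described here come from starlet sea anemones, *Nematostella vectensis*, in the first 24 h after a light:dark cycle was taken away. They are the LD libraries of time points T7 to T9 (12 libraries) and of T10 to T12 (12 libraries), 24 of the 136 libraries of the study, chosen by arm and time point alone. LD animals had been kept for 1 month in light:dark conditions and were sampled every 4 h, for 24 h with the cycle running (T1 to T6) and for 44 h more after it was removed (T7 to T17). DD animals had been kept for 1 month in dark:dark conditions, saw no change of lighting, and were sampled at the same hours. Every arm and time point has 4 replicate libraries, lettered A to D, made from total RNA of whole adults. The labels name no mutation, transgene or drug. Both sides of the LD contrast share the month under the cycle and its removal, and differ in hours: T7 is the first sample after the 6 taken under the cycle, and T10 comes 12 h later. Clock times, how many animals went into a library, and how DD animals were lit earlier are not stated in the labels, and the p-values therefore speak only for variation among libraries. Gene identifiers could not be matched to names or roles, so none is given, and the tissue label could not be checked against marker genes.

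Daily rhythms of animals come from clocks in which transcription factors drive genes whose products feed back to repress them, and light resets these loops through photoreceptors and cryptochromes. *Nematostella* moves and expresses part of its genes on a daily schedule under a light:dark cycle, and the rhythms of many of its clock genes weaken or vanish in constant darkness. A gene that follows an internal clock could differ between earlier and later hours of a day after the light is gone, and again a day later. A single reaction to the removal would not come back. Means over several time points can also miss a clock gene, so a missing repeat does not tell these apart.

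Total counts ran from 326374 to 721750 at T7 to T9 and from 271463 to 650530 at T10 to T12 in LD, and from 207665 to 688622 in DD at T7 to T9 and from 322760 to 669672 at T10 to T12. Lane 5 held T1 to T12 and lane 7 held T13 to T17. No contrast of earlier with later time points within a day spans both lanes, though the comparison of the first cycle with the second does. The LD T14 replicate D library held 27546 counts and is left out of the levels, though not of the fits. Some libraries stood apart in 131 genes that went up and down together, called programme A here. Their mean log2 CPM (library-size-scaled counts, CPM, on TMM-scaled library sizes) was between 2.36 and 2.46 in 5 of the 12 LD libraries at T7 to T9 and between 6.41 and 7.87 in the other 7, which were T7 replicates C and D, T8 replicates A and B, and T9 replicates A, C and D. None of the 12 LD libraries at T10 to T12 lay above the midpoint of that score, 5.06, with 3.88 the highest, and in DD 0 of 12 and 1 of 12 did. Over the whole series 15 libraries did, 13 in LD and 2 in DD. Each result is given with all libraries and, where it matters, without those 15, an alternative chosen after seeing the data, which leaves 2 LD libraries at T7, 2 at T8 and 1 at T9 against 12 at T10 to T12.

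**Figure D1:**
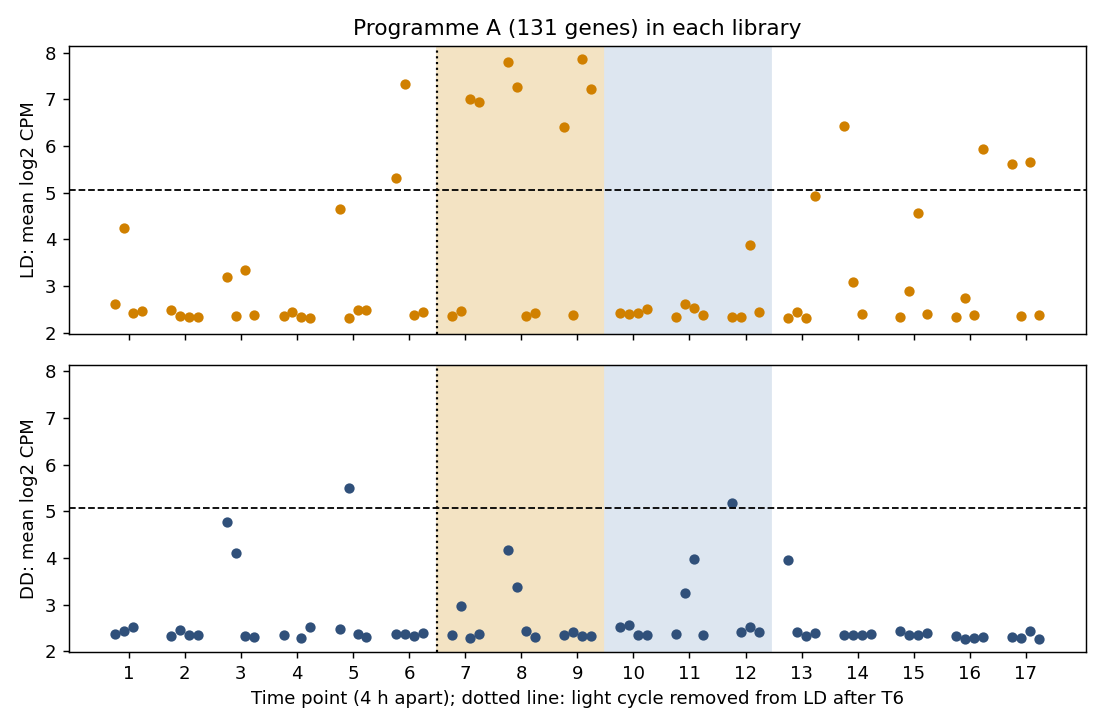
Mean log2 CPM of the 131 programme A genes in each library (points) by time point, LD above and DD below, with the midpoint of 5.06 (dashed) and the shading on T7 to T9 and T10 to T12. At T7 to T9, 7 of 12 LD libraries lie between 6.41 and 7.87 and 5 between 2.36 and 2.46, while all 12 at T10 to T12 lie under the midpoint.

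In the first half-day after removal, 1411 genes were higher in LD than in the second half-day and 609 were lower. The 1411 were genes of middling abundance, with a median of their mean log2 CPM of 4.37 against 4.74 for all genes tested, and large differences: the median log2 difference was 1.38, and 935 of them exceeded 1, 480 exceeded 2 and 313 exceeded 3. The 609 were abundant genes, at a median log2 CPM of 6.48, and differed little, by a median of -0.63, with 89 of them beyond 1. Together, 2020 of 10257 genes tested (19.7%) passed an adjusted p of 0.05 in edgeR's quasi-likelihood test, 13.8% higher and 5.94% lower. This contrast asks which genes differ between the earlier and later hours of the first day without a light cycle. The calls were lost without the 15 libraries: 0 of 12150 genes passed, 961 at an unadjusted p under 0.05, and over the genes tested with all libraries 0 of 10257, 839 unadjusted. The part of programme A in the counts, and that of the smaller number of libraries left, was not tested. In whole animals, a shift in the number of cells of a type and one in RNA per cell cannot be told apart.

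The balance of higher and lower calls depended on the scaling. With RLE factors the median gene was itself higher at T7 to T9 by 0.28 on the log2 scale (0.03 with TMM) and 2630 genes were called higher (25.6%) and 1.62% of genes lower, which puts 94.1% of calls in the higher direction against 69.9% with TMM. With library size alone the median shift was 0.14 and 1842 genes were higher and 332 lower, 84.7% higher. Relative to that median the directions of both groups stood, but the groups were chosen on these same libraries, so this does not test them.

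**Figure D2:**
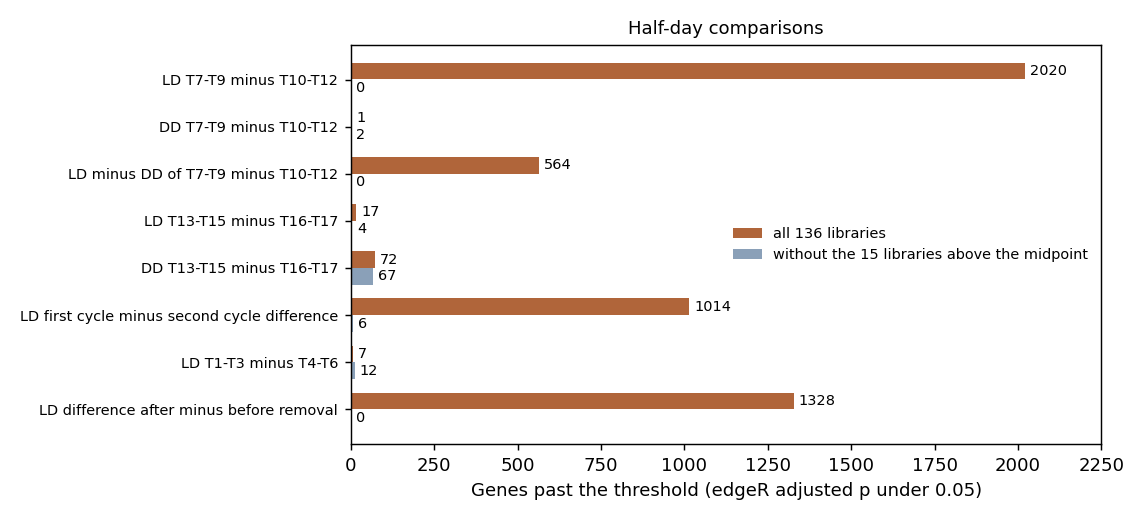
Number of genes past an adjusted p of 0.05 (x axis; edgeR) in each half-day comparison, with all 136 libraries (brown) and without the 15 above the programme A midpoint (blue-grey). The LD contrast of T7 to T9 with T10 to T12 goes from 2020 to 0 genes, and DD T13 to T15 with T16 to T17 from 72 to 67.

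NVE23431 had the smallest p of all genes in this contrast. At T7 to T9 its 12 LD libraries held between 34.5 and 235.9 CPM, with a median of 101, and at T10 to T12 between 14.4 and 39.6 CPM, with a median of 27.2. The ranges overlap, but all 12 early libraries lay above the later median and 7 above every later library, and those 7 are the libraries high in programme A, of which it is no member. At T8, replicates A and B held 235.9 and 114 CPM and replicates C and D 34.5 and 38.4. Its log2 difference was 1.94 ± 0.23 (SE) with an edgeR adjusted p of 8.87e-10, against 0.47 and an adjusted p of 0.61 without the 15 libraries.

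NVE13179 split further. Its LD libraries held from 6.41 to 433 CPM at T7 to T9, with a median of 189.5, and from 6.01 to 36.3 CPM at T10 to T12, with a median of 15.6. Of the early libraries, 8 lay above every later one: T8 replicate C, at 36.6 CPM, just above it, and the 7 named above at 170.8 CPM or more. At T9, replicate B held 11.6 CPM beside 433 in replicate C. The log2 difference was 3.22 ± 0.40 (SE; edgeR adjusted p 5.91e-09), and without the 15 libraries it was 0.05.

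The other higher genes followed the same libraries. Of the 1411, 1339 had their maximum over the 24 libraries in one of those 7 and 11 had it at T10 to T12. The genes were chosen as higher at T7 to T9 in these same libraries, and maxima were not counted over all genes tested. LD T8 replicate A alone held the maximum of 474 genes and LD T9 replicate C that of 376. The 1411 genes took from 8.29% to 16.1% of all counts in the 7 libraries, from 3.28% to 4.46% in the other 5 at T7 to T9 and from 2.67% to 4.01% at T10 to T12. All 131 genes of programme A are among them. For the 1280 that are not, the mean log2 CPM was between 5.29 and 6.06 in the 7 libraries and between 4.14 and 4.44 in the other 5, and the 15 libraries with the highest such mean over the whole series were the same 15. Over T7 to T12, 919 of the genes (65.1%) had their highest mean at T9 and 17.4% each at T7 and T8. T9 also held more of the 7 libraries than T7 or T8 did, and the part of this in the shares was not tested. The median log2 difference of the 1411 genes was 0.006 without the 15 libraries, and 50.2% were positive, against 44.8% of all genes.

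**Figure D3:**
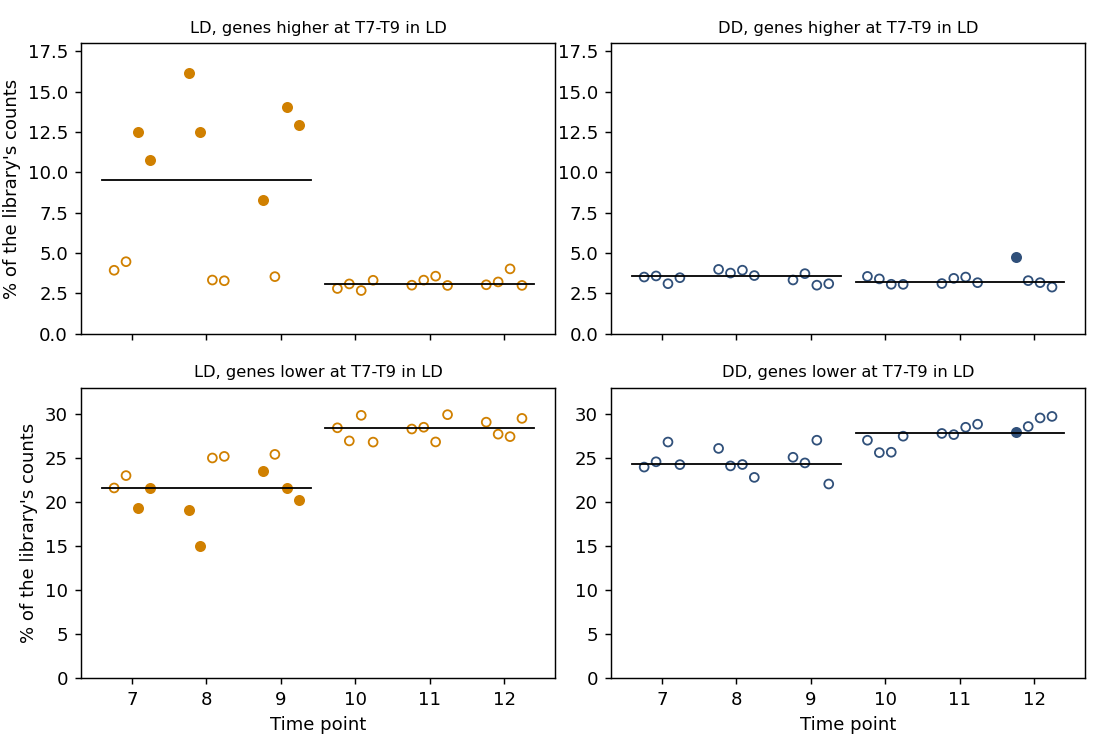
Percent of each library's counts (y axis) in the 1411 genes higher at T7 to T9 in LD (top) and the 609 lower ones (bottom), by time point, with filled points for libraries above the programme A midpoint and lines for the medians of T7 to T9 and of T10 to T12. In LD the lower genes took 15.1% to 25.5% at T7 to T9 and 26.8% to 30.0% at T10 to T12, with no overlap, while in DD the ranges overlap.

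The 609 lower genes were spread over more libraries. They took between 15.1% and 25.5% of all counts at T7 to T9 (median 21.6%) and between 26.8% and 30.0% at T10 to T12 (median 28.4%), so that every early LD library lay under every later one. This held for the 5 early libraries low in programme A too, which were between 21.6% and 25.5%, the 7 others being between 15.1% and 23.6%. The genes were chosen on these libraries, so this describes them and does not test them. Their lowest time point of T7 to T12 was T7 for 39.2%, T8 for 29.4% and T9 for 31.4%. Without the 15 libraries, 99.2% of them stayed negative, against 55.1% of all genes, with a median of -0.40, and 0 passed the test. The LD libraries left had also taken part in choosing the 609 genes, so this share is no test of them either.

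NVE9033 was the lower gene with the smallest p under the abundance limit used for naming. Its LD libraries held from 1349.9 to 2825 CPM at T7 to T9, with a median of 2306, and from 2658 to 4261 CPM at T10 to T12, with a median of 3201. Of the 12 early libraries, 11 lay under every later one, and T9 replicate A, at 2825 CPM, was the exception. The log2 difference was -0.61 ± 0.10 (SE; edgeR adjusted p 6.49e-07), and -0.46 without the 15 libraries (adjusted p 0.35). At the same hours in DD it was -0.29 ± 0.10 (SE, edgeR adjusted p 0.32). The difference between the arms was not called (edgeR adjusted p 0.20).

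NVE13149 held from 43.2 to 197.1 CPM in LD at T7 to T9, with a median of 124, and from 117 to 298 CPM at T10 to T12, with a median of 242.5. All 12 early libraries lay under the later median and 5 under every later library, with T8 replicate B the lowest. Its log2 difference was -0.86 ± 0.14 (SE; edgeR adjusted p 1.22e-06), and -0.59 without the 15 libraries (adjusted p 0.34). At the same hours in DD it was -0.15 ± 0.14 (SE, edgeR adjusted p 0.83), and the difference between the arms was called (edgeR adjusted p 0.0171). For 1 of the 609 genes, and for 0 of the 1411, T7 to T9 and T10 to T12 did not overlap at all, and over all 10257 genes tested the counts were the same, 1 lower and 0 higher. This gene, NVE19115, named after its values were seen, held from 1320.3 to 2267 CPM at T7 to T9 and from 2357 to 3296 CPM at T10 to T12, with a log2 difference of -0.63 ± 0.11 (SE; edgeR adjusted p 1.68e-06). In DD its log2 difference had the same direction, -0.44 ± 0.11 (SE, edgeR adjusted p 0.14), and was not called. Over the 609 genes the median number of early libraries under the later median was 11 of 12, and over the 1411 the median number above it was 10, against 6 for all genes tested. Both groups were chosen on these libraries, so these numbers describe them and do not test them.

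At the same hours in DD, where the lighting did not change, 1 gene of 10257 (0.00975%) passed, lower at T7 to T9, and 913 had an unadjusted p under 0.05. NVE19863 held from 968 to 1615 CPM in DD at T7 to T9, with a median of 1312, and from 1341 to 2139 CPM at T10 to T12, with a median of 1640.2. All 12 early DD libraries lay under the later median and 9 under every later library. Its log2 difference was -0.41 ± 0.08 (SE) with an edgeR adjusted p of 0.0478, near the threshold, and that p ranged from 5.68e-05 to 0.711 over the alternatives, of which 9 of 18 ended the call. These 18 do not include leaving out a time point, and the call also ended without T7, T8, T11 or T12. In LD the same gene held from 738 to 1624 CPM and then from 1403 to 1739 CPM, with 11 of 12 early libraries under every later one and T8 replicate D, at 1624 CPM, above the later median. The LD log2 difference was -0.50 ± 0.08 (SE; edgeR adjusted p 1.84e-06), and the difference between the arms was -0.09 ± 0.12 (SE; adjusted p 0.79). Without the 15 libraries the log2 difference was -0.42 in each arm.

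The 2 groups chosen in LD behaved unlike each other in DD. The DD libraries carried no weight in the contrast that chose the groups, though they shared its gene filter, scaling and spread estimate. Of the 609 lower genes, 83.1% were also lower at T7 to T9 in DD, against 51.6% of all genes tested, with a median log2 difference of -0.20 and 1 of them called. The share was 72.4% with RLE factors, where 39.5% of all genes were lower, and 77.0% with library size alone, where 44.1% were. These genes took from 22.1% to 27.1% of DD counts at T7 to T9 (median 24.4%) and from 25.7% to 29.8% at T10 to T12 (median 27.9%). The ranges overlap, and the shift is in the LD direction. Of the 1411 higher genes, 45.9% were higher in DD, against 48.4% of all genes tested, with a median of -0.04 and 0 called. In DD they took from 3.00% to 3.98% of counts at T7 to T9 and from 2.88% to 4.78% at T10 to T12. Genes within a group are not independent, and no test of these shares was made.

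**Figure D4:**
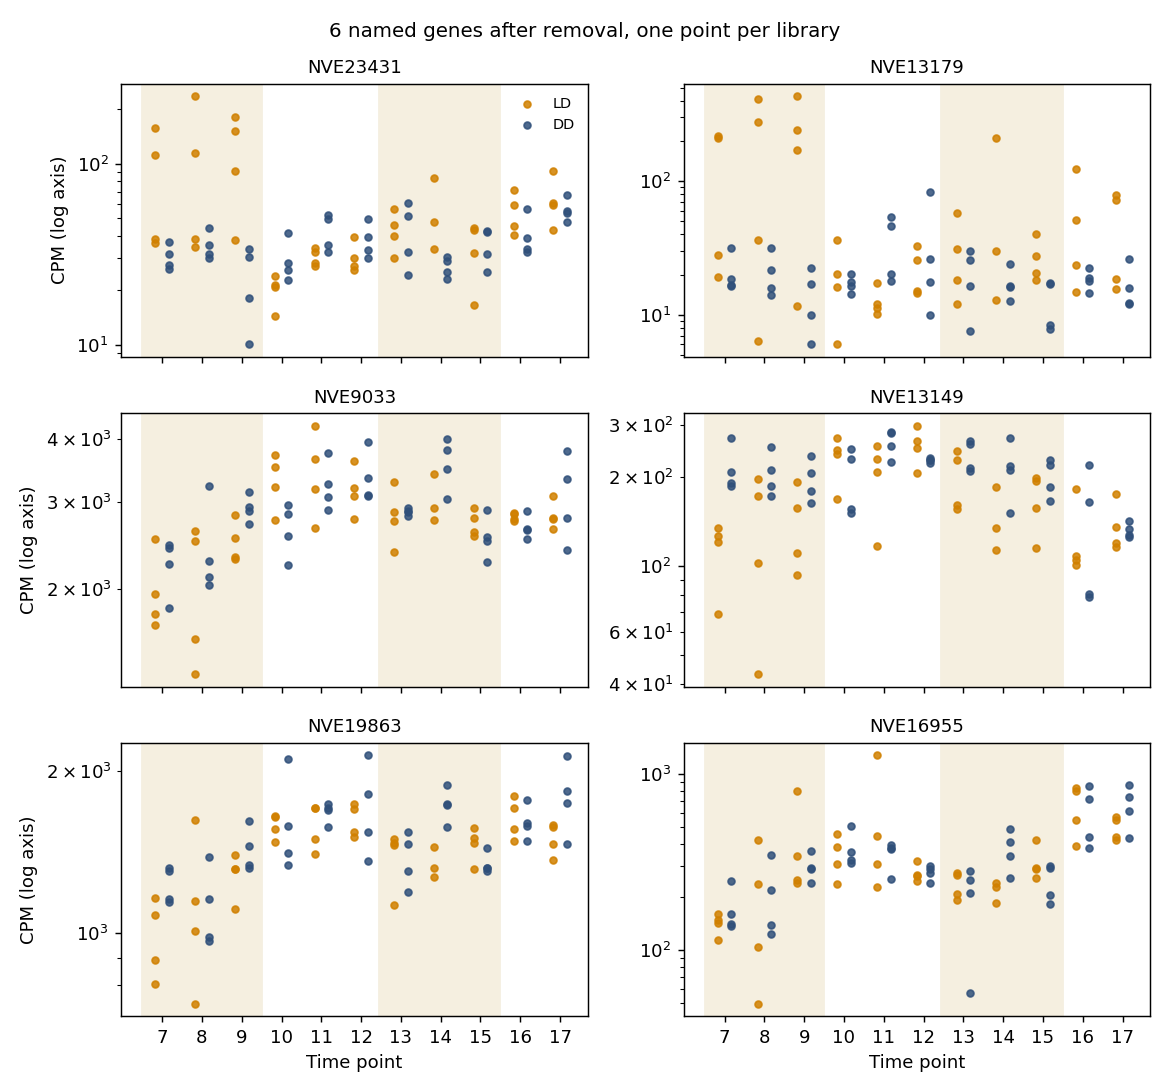
CPM (log axis) of 6 named genes in each library from T7 to T17, LD in orange and DD in blue, with T7 to T9 and T13 to T15 shaded and LD T14 replicate D left out. NVE23431 and NVE13179 are split within LD at T7 to T9, and NVE19863 and NVE16955 are lower at T7 to T9 in both arms (median 1129 and 199.1 CPM in LD, against 1602 and 309 at T10 to T12).

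The half-day difference itself differed between LD and DD for 564 genes (5.50%), 530 more positive in LD (5.17%) and 34 more negative (0.331%). NVE23431 and NVE13179 again had the smallest p among the positive ones: in DD NVE23431 held from 10.1 to 43.9 CPM and then from 22.8 to 52.1 CPM, and its log2 differences of 1.94 in LD and -0.34 in DD differed by 2.28 ± 0.33 (SE; edgeR adjusted p 4.73e-06). NVE13179, from 6.07 to 31.6 CPM in DD at T7 to T9, differed by 3.85 ± 0.61 (SE; edgeR adjusted p 3.62e-05). Among the negative ones, NVE6630 had medians of 111 CPM at T7 to T9 and 147.95 CPM at T10 to T12 in LD, and of 150.2 and 104 CPM in DD. Its log2 differences were -0.36 in LD and 0.47 in DD, neither called (edgeR adjusted p 0.074 and 0.30). They differed by -0.84 ± 0.21 (SE, edgeR adjusted p 0.00656), a call lost without replicate A, C or D. NVE13654, a low gene with 0 counts in 3 LD libraries at T7 to T9 and in 2 at T10 to T12, had medians of 3.17 and 11.2 CPM in LD and of 11.8 and 3.78 CPM in DD (log2 difference -2.46 ± 0.63, SE; edgeR adjusted p 0.00658). Its call was lost under 5 of 16 alternatives, among them limma-voom and leaving out replicate A or D. Without the 15 libraries 0 genes passed, 545 of 12150 at an unadjusted p under 0.05, and the 4 log2 differences were 0.76, 0.34, -0.84 and -1.53. Leaving out LD T8 replicate A alone brought the count to 345.

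One cycle later, T13 to T15 against T16 to T17 in LD, 17 genes passed (0.166%), 2 higher at T13 to T15 (0.0195%) and 15 lower (0.146%). T16 to T17 has 2 time points rather than 3. Genes called in both LD cycles numbered 3, all in the same direction (17.6% of the 17 and 0.149% of the 2020), and 0 were called in opposite directions. NVE16345 was higher in both, and NVE11578 and NVE16955 lower in both; NVE11578 and the first-cycle values of the other 2 were chosen after their values were seen. Of all genes tested, 19.7% were called in the first cycle and 0.166% in the second, so each of these shares is near the background. In the first cycle the call was lost under 8 of 18 alternatives for NVE16345, 6 for NVE11578 and 4 for NVE16955, and in the second under 10, 10 and 5. These 18 do not include leaving out a time point. Without T16, 0 genes passed in the second LD cycle, so all 3 calls were lost there too.

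NVE16345 held from 19.2 to 58.6 CPM at T7 to T9 and from 12.49 to 36.1 CPM at T10 to T12 in LD, then from 17.0 to 47.5 CPM at T13 to T15 and from 9.87 to 28.0 CPM at T16 to T17. The medians were 34.8 and 24.2 CPM, then 32.9 and 16.8 CPM. Its log2 differences were 0.53 ± 0.18 (SE; edgeR adjusted p 0.0281) and 0.95 ± 0.23 (SE; adjusted p 0.0497). With the 15 libraries left out the first was -0.06 and the second 1.00, neither called.

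NVE16955 was lower at the earlier time points of each cycle in both arms, with 1 of the 4 contrasts not called. In LD its medians were 199.1 CPM at T7 to T9 and 309 CPM at T10 to T12, then 256.96 CPM at T13 to T15 and 547 CPM at T16 to T17. In DD they were 230.1 and 317 CPM, then 268.5 and 672 CPM. All 11 LD libraries and all 12 DD libraries at T13 to T15 lay under the median of T16 to T17, 10 of them in each arm under every later library. The log2 differences were -0.73 ± 0.22 and -1.21 ± 0.25 (SE) in LD, with edgeR adjusted p of 0.0114 and 0.0148, and -0.60 ± 0.22 and -1.25 ± 0.24 in DD, with 0.377 and 0.00125. The LD values were -0.14 and -1.12 without the 15 libraries, neither called (adjusted p 0.95 and 0.090). NVE11578 had the same order of levels, with medians in LD of 302 and 414 CPM, then 358 and 630.2 CPM, and log2 differences of -0.54 ± 0.17 and -0.82 ± 0.19 (SE; edgeR adjusted p 0.0132 and 0.0311), which were -0.02 and -0.74 without the 15 libraries, neither called. In DD the differences were -0.31 and -0.88, the second called at 0.00351. NVE19863 was lower by 0.20 on the log2 scale in the second LD cycle (-0.20 ± 0.09, SE) and in the second DD cycle (-0.21 ± 0.09), neither called, with all 11 LD libraries of T13 to T15 under the median of T16 to T17.

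**Figure D5:**
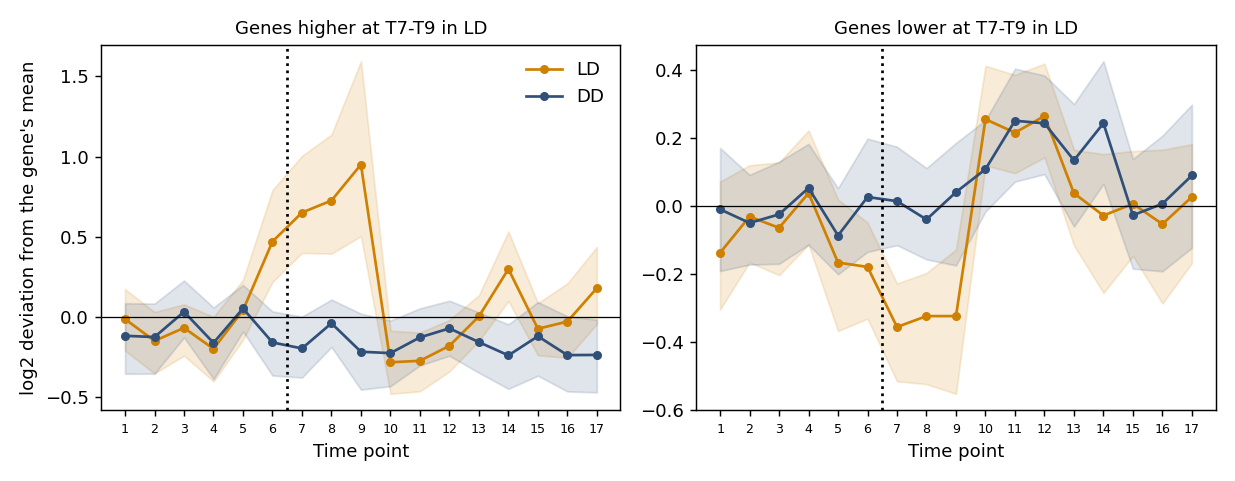
Median log2 deviation of each gene from its own mean (points; band, quartiles over genes) by time point, for the 1411 genes higher (left) and 609 lower (right) at T7 to T9 in LD, in both arms, with a dotted line at removal. The higher genes stand at 0.47 at T6 and 0.95 at T9 in LD and near -0.28 at T10, while the lower genes are lowest at T7 to T9 in LD and reach 0.25 at T11 in DD.

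With all libraries, the share of genes that kept their direction a cycle later in LD was below that of all genes for the higher set and near it for the lower set, while for the higher set it changed without the libraries high in programme A. Of the 1411 higher genes, 44.2% were higher at T13 to T15 than at T16 to T17, against 49.6% of all genes tested, with a median log2 difference of -0.07 and 1 called. Here 1 of 11 libraries at T13 to T15 (T14 replicate A) and 3 of 8 at T16 to T17 (T16 replicate D, T17 replicates A and C) lay above the programme A midpoint, and without them 73.7% were higher over the genes tested with all libraries, against 51.3% of all genes, with a median of 0.27 and 0 called. LD T13 replicate D, at a score of 4.92, and LD T15 replicate C, at 4.57, were just under that midpoint and remained. Of the 609 lower genes, 51.6% were lower, against 50.4% of all genes tested, with a median of -0.01 and 2 called. Over the same genes without the 15 libraries the share was 56.0%, against 48.7% of all genes. In DD, 58.9% of the higher genes were higher and 41.7% of the lower genes lower at T13 to T15, against 53.8% and 46.2% of all genes tested, with 12 of the lower genes called higher (1.97%, against 0.283% of all genes) and 5 called lower (0.821%, against 0.419%). Of the higher genes, 0 were called higher and 1 lower.

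The change from one cycle to the next was also tested directly. The LD half-day difference differed between the cycles for 1014 genes (9.89%), 779 more positive in the first cycle (7.59%) and 2.29% of genes more negative, and without the 15 libraries for 6. NVE23431 had medians of 42.8 and 59.1 CPM in the second cycle, and its 2 differences of 1.94 and -0.44 differed by 2.38 ± 0.34 (SE; edgeR adjusted p 1.38e-06). NVE5501, a gene of programme A, had 107 CPM as its median at T7 to T9 and 1.69 CPM at T10 to T12, with a highest value of 394 CPM in T8 replicate A and 0 counts in T8 replicate D, and medians of 1.65 and 7.35 CPM in the second cycle (edgeR adjusted p 9.38e-06). NVE13149 went the other way, at 160.4 CPM as its median at T13 to T15 and 118 CPM at T16 to T17, and the cycles differed by -1.20 ± 0.22 (SE; edgeR adjusted p 7.34e-05). Its second-cycle log2 difference had the same direction in both arms. It was 0.34 in LD (edgeR adjusted p 0.52) and 0.68 ± 0.16 in DD (SE, edgeR adjusted p 0.0139). NVE4746 had medians of 227.8 and 342 CPM in the first cycle and of 336 and 232.3 CPM in the second, a difference of -1.14 ± 0.23 (SE; edgeR adjusted p 0.000226). Its second-cycle log2 difference was 0.54 in LD and 0.48 in DD, neither called. That of NVE23431 was -0.48 in DD, and that of NVE5501 was -1.59 in LD and 0.81 in DD, none called. Without the 15 libraries the differences between cycles were 0.78 for NVE23431, -0.57 for NVE5501 (7.06 with them), -0.81 for NVE13149 and -0.84 for NVE4746, none called.

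Among the remaining genes called at T13 to T17, those named by rule were not called in the same direction in LD a cycle earlier. In LD, NVE22320 had medians of 16.2 CPM at T13 to T15 and 3.20 CPM at T16 to T17 (log2 1.71 ± 0.36, SE; edgeR adjusted p 0.0199), after 9.86 and 14.2 CPM in the first cycle. NVE7493 had medians of 17.7 and then 54.7 CPM (-1.45 ± 0.27, SE; edgeR adjusted p 0.00347), after 21.3 and 22.3 CPM. In DD, 72 genes passed (0.702%), 29 higher at T13 to T15 (0.283%) and 43 lower (0.419%). Of these 72, 18 (25%, against 19.7% of all genes) had been called in LD at T7 to T12, 5 in the same direction and 13 in the opposite one. The 5 were NVE11578, NVE16955, NVE1244, NVE14225 and NVE23819, named after their calls were seen. NVE21911 was higher there, at medians of 76.3 and 33.95 CPM (1.09 ± 0.22, SE; edgeR adjusted p 0.00246), and NVE22879 at 40.8 and 18.1 CPM (1.11 ± 0.24, SE; adjusted p 0.00351). NVE7148 was lower, at medians of 17.4 and 70.5 CPM (edgeR adjusted p 4.37e-10), and so was NVE6036, at 3.97 and 16.3 CPM (adjusted p 4.32e-06); DD T17 replicate A held 1419.6 and 308 CPM of these 2 genes. Without that library, an alternative chosen after seeing the data, 14 genes passed in DD. The call of NVE6036 was then lost and that of NVE7148 kept.

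Before removal, with the cycle running, the same spacing of hours gave few calls. At T1 to T3 against T4 to T6 in LD, 7 genes passed (0.0682%), 5 higher (0.0487%) and 2 lower (0.0195%). NVE5408 had medians of 371 CPM at T1 to T3 and 106 CPM at T4 to T6, with no overlap, since the lowest early library held 196.2 CPM and the highest later one 151.9 CPM (log2 1.73 ± 0.24, SE; edgeR adjusted p 2.37e-07). After removal its medians were 97.5 and 73.6 CPM (0.46 ± 0.24, SE; adjusted p 0.18). NVE8679 went from 125 CPM at T1 to T3 to 32.5 CPM at T4 to T6 (2.00 ± 0.29, SE; edgeR adjusted p 1.31e-06), and had 23.6 and 15.0 CPM after removal. NVE8107 was lower at T1 to T3, with 5.59 against 42.3 CPM (-2.97 ± 0.27, SE; edgeR adjusted p 1.63e-15). It was lower again at T7 to T9, with 8.43 against 14.3 CPM (-0.72 ± 0.27, SE; edgeR adjusted p 0.0485, near the threshold). There, 8 of 12 early libraries lay under the later median and 2 under every later library. Without the 15 libraries 0 genes passed in that contrast, so this second call was lost. NVE4116 was the other lower gene, at 6.95 against 32.7 CPM (-1.31 ± 0.30, SE; edgeR adjusted p 0.0378), and had 15.8 and 9.06 CPM after removal. Its call before removal was lost under 8 of 17 alternatives, with an adjusted p of up to 0.525. Called on both days were 2 genes, NVE8107 in the same direction and NVE1728, named after its calls were seen, in the opposite one, which is 28.6% of the 7 against the 19.7% of all genes called at T7 to T12.

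The LD half-day difference changed at removal for 1328 genes (12.9%), 1009 more positive after it (9.84%) and 319 more negative (3.11%). NVE4989 had medians of 14.2 and 23.5 CPM before removal and of 94.7 and 10.4 CPM after it, a change of 4.01 ± 0.55 on the log2 scale (SE; edgeR adjusted p 3.65e-07). NVE1986 had 32.5 and 48.1 CPM before and 117 and 28.8 CPM after (2.66 ± 0.37, SE; edgeR adjusted p 3.65e-07). NVE13149 had 177.4 and 144.4 CPM before, when its order was opposite (-1.11 ± 0.20, SE; edgeR adjusted p 2.85e-05), and NVE168 had 188.8 and 164.4 CPM before and 138 and 204.5 CPM after (-0.80 ± 0.15, SE; edgeR adjusted p 6.58e-05). The changes of the 4 genes were 0.49, 0.13, -0.75 and -0.54 without the 15 libraries. Of the 1411 genes higher at T7 to T9, 16.4% were higher at T1 to T3 than at T4 to T6, against 47.0% of all genes tested. LD T6 replicates A and B lay above the programme A midpoint there and no library of T1 to T3 did, and without the 15 libraries 49.9% were higher. Of the 609 lower genes, 46.8% were lower at T1 to T3, against 53.0% of all genes tested. After the 15 libraries were left out 0 genes passed the test of the change at removal, 804 of 12150 at an unadjusted p under 0.05.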

How the data were processed

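The authors deposited 1 table of raw counts per gene for 136 libraries (24384 genes), with no normalization. Per the submitters' processing notes reads were mapped with Bowtie2; its version, the counter, strand handling and annotation are not given in the sources, so near-identical or overlapping genes may share reads. The labels' sampling scheme puts removal between T6 and T7.

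Counts were tested with edgeR 4.0.16 (R 4.3.3): filterByExpr over 34 groups (10257 genes kept), TMM factors, and 1 quasi-likelihood model of 34 group means with 102 residual degrees of freedom. Each comparison is a contrast of means of time points, with Benjamini-Hochberg adjustment over all tested genes and a threshold of 0.05. Differences between arms, cycles or days were tested as contrasts of contrasts. Named genes are those with the smallest adjusted p among called genes of mean log2 CPM of at least 2, at most 2 per direction and comparison; 0 identifiers matched the gene table given for the organism. The contrasts, groups and programmes were chosen with earlier results of these data known. Programme A came from average-linkage clustering of the 400 most variable genes (log2 CPM, prior count 2) by correlation distance, with the tree split at 0.5 and clusters under 20 genes dropped. Levels leave out 3 libraries with totals under 179339; the median total was 538017. Pairs of replicates of 1 group differed beyond sampling noise, with chi-square divided by its degrees of freedom never under 3.37. The alternatives were DESeq2 1.42.0, limma-voom (limma 3.58.1), 2 other edgeR fits, RLE factors, library size alone, 2 filters, fits of the compared libraries only, the replicate letter as a block, and leaving out letters, time points or libraries. The fit was checked on simulated counts, drawn independently for each gene and library. They held no genes that went up and down together as programme A does, so the check does not cover that case.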

Additional observations from a re-analysis of the deposited data

Results flagged for a closer look

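The half-day difference of T7 to T12 differed between LD and DD for 564 genes, that of LD differed between the first and second cycle after removal for 1014 genes, and that of LD differed between the days after and before removal for 1328 genes, each by an edgeR contrast of the difference itself. In the programme A score, 1 of the 4 libraries of a group lay far from the other 3 in 6 of the 22 groups of T7 to T17 (none of the 22 in the mean level of the lower genes): DD T7 replicate B at 2.98, LD T12 replicate C at 3.88, DD T12 replicate A at 5.17, LD T13 replicate D at 4.92, DD T13 replicate A at 3.95 and LD T16 replicate D at 5.95. Chance flags about 1 in 20 groups. LD T7 and T8 had 2 high libraries each and LD T9 had 3, and no single library stood apart there by this measure. Among the named genes, 5 of 50 groups of 8 libraries at T16 to T17 had 1 library far from the rest, in CPM: NVE9033 in LD T17 replicate C (3082), NVE13654 in LD T16 replicate C (39.8), NVE22320 in DD T16 replicate D (30.0), and NVE7148 (1419.6) and NVE6036 (308) in DD T17 replicate A.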

How the results depend on the processing

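Values here are percents of the genes tested under each setting, beside the value with all libraries and the settings of the report. Genes called in the LD contrast of T7 to T9 with T10 to T12 (19.7%) came to 19.4% (1069 of 5498) with a filter of at least 10 counts in most libraries and to 0 without the 15 libraries high in programme A, in both gene sets. Its higher genes (13.8%) came to 23.4% with DESeq2, 25.6% with RLE factors, 12.3% with that filter and 0 without those libraries. Its lower genes (5.94%) came to 1.59%, 1.62%, 7.11% and 0, to 3.24% with library size alone and to 3.62% without T7. Leaving out 1 replicate letter or 1 LD library gave 12.6% (1313 genes, without replicate A) to 22.1% (2262 genes, without LD T9 replicate B) in all, 9.66% to 14.7% higher and 2.97% (309 genes, without replicate A) to 7.47% lower; without replicate C the lower genes numbered 403. In DD at T7 to T12 (1 gene, 0.00975%), the share was 1.52% with DESeq2 (38 of 2502 genes with an adjusted p), 0.0292% with library size alone, 0.047% without shallow libraries, 0.0165% without the 15 libraries and 0.0585% without T9 or without T10. It was 0 with a robust prior, without a filter, with the replicate block, without T7, T8, T11 or T12, without LD T8 replicate A, and without each replicate letter.

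The difference between the arms (5.50%) came to 4.73% (260 genes) with the filter of 10 counts, 0.985% with limma-voom, 2.57%, 2.96% and 2.91% without T9, T11 and T12, 0 without the 15 libraries, and 0.789% (82 genes, without replicate A) to 4.21% without a letter or a library, with 3.36% (345 genes) without LD T8 replicate A, 2.59% without replicate C and 2.26% without replicate D. The difference between cycles (9.89%) came to 7.38% (406 genes), 4.17% with limma-voom, 6.58% with the compared libraries only, 0.0494% (6 genes) without the 15 libraries, 0.0487% over the genes tested with all libraries, and 2.11% (without replicate D) to 9.02% without a letter or a library, with 5.14% without replicate C. The change at removal (12.9%, 1328 genes) came to 12.9% with the filter, where fewer genes were tested (709 called), to 0 without the 15 libraries, and to 6.71% (697 genes, without replicate A) to 9.83%, with 7.89% and 7.91% without replicates B and D. LD before removal (0.0682%) came to 0.107% with DESeq2, 0.0364% with the filter, 0.117% with the newer quasi-likelihood fit, 0.0988% and 0.107% without the 15 libraries, and 0.0391% (4 genes, without replicate B) to 0.0682%.

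LD at T13 to T17 (0.166%, 17 genes) came to 0.789% with DESeq2, 0.491% with the filter, 0.0682% with library size alone, 0.283% with limma-voom, 0.0164% with no filter, 0.0261% with the compared libraries only, 0.0329% and 0.0487% without the 15 libraries, 0.00975%, 0.409%, 0 and 0.292% without T14, T15, T16 and T17, and 0 (without replicate C) to 0.185%, with 1, 4 and 3 genes without replicates A, B and D. Beside the 0 without T16, 651 genes had an unadjusted p under 0.05. DD at T13 to T17 (0.702%, 72 genes) came to 2.48% with DESeq2, 0.145% with the compared libraries only, 0.107%, 1.61%, 0.253% and 0.078% without T13, T14, T16 and T17, and 0.131% (14 genes, without DD T17 replicate A) to 0.721%, with 0.202% and 0.191% without replicates A and D.

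NVE5501 changed sign between cycles when the 15 libraries were left out (-0.57, and -0.56 over the genes tested with all libraries), and NVE16345 at T7 to T12 (-0.061 and -0.057). Of 606 alternative values of named genes, 490 kept their direction and call. The cause of these changes was not tested. Letters were not treated as pairs, since the labels do not say what a letter marks. Deviations of same-lettered LD libraries correlated at 0.007 to 0.078, though 3 of 4 letters correlated best with their own. With the replicate block the LD contrast gave 1995 genes, the difference between arms 547, between cycles 982 and at removal 1298, LD before removal 8, LD at T13 to T17 15 and DD 69.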
